A study of Mus musculus with 8 samples.

Results

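The integrin and laminin genes of the mouse were followed across embryonic stem (ES) cells, induced pluripotent stem (iPS) clones and mouse embryonic fibroblasts (MEF). The set was chosen by symbol alone: every numbered or lettered integrin alpha gene, the integrin beta genes Itgb1 to Itgb8, and the laminin alpha, beta and gamma chain genes. It held 37 of the 23389 symbols listed in all 8 libraries, of which 26 were integrins and 11 were laminins. RNA was measured by poly-A RNA sequencing in 4 groups of 2 libraries. The ES cells were the D3 GFP line on a 129S2/SvPas background. The 3F + IL6 iPS clones, on a BALB/c background, were treated with 10 ng/mL of the cytokine IL6. The 4F iPS clones and the MEF were also BALB/c, with no treatment named in the labels. In the field's usual naming, 3F stands for Oct4, Sox2 and Klf4, and 4F adds c-Myc. Each clone came from its own derivation, and the design text calls the paired ES and MEF libraries biological replicates. In comparisons with ES cells the strain and the cell type cannot be told apart. Between the kinds of iPS clone the factor set and IL6 changed together and likewise cannot be told apart. The ES cells are a single line, so their libraries do not stand for ES cells at large.

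Integrins are cell surface receptors made of an alpha and a beta chain that bind the extracellular matrix outside the cell and the actin cytoskeleton, through adaptor proteins, inside it. Laminins are secreted trimers of an alpha, a beta and a gamma chain, and they form the sheet of basement membrane on which epithelial cells, including those of the early embryo, rest. Pluripotent cells attach to laminin mainly through the alpha 6 beta 1 receptor, while fibroblasts in culture spread on fibronectin and vitronectin through alpha 5 beta 1 and the alpha v receptors.

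The stretch just before the transcription start is printed for 4 members whose levels set the groups apart: Itga5, Itgav and Itgb1, which were highest in MEF, and Lama5, which was highest in the iPS clones. The sequences are from RefSeq (GRCm38.p6), 250 bases before the start, given 5′ to 3′ on the gene's strand. Capitals mark a GC box (GGGCGG on either strand) or an E-box (CAGGTG on either strand). The Itga5 promoter lies on the minus strand at chr15:103366792-103367041, that of Itgav on the plus strand at chr2:83724147-83724396, that of Itgb1 on the plus strand at chr8:128685404-128685653 and that of Lama5 on the minus strand at chr2:180225860-180226109.
Itga5: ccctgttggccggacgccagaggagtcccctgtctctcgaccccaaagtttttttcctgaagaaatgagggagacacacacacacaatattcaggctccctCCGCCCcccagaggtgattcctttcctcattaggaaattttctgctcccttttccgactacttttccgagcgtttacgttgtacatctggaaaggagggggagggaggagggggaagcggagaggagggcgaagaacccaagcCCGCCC
Itgav: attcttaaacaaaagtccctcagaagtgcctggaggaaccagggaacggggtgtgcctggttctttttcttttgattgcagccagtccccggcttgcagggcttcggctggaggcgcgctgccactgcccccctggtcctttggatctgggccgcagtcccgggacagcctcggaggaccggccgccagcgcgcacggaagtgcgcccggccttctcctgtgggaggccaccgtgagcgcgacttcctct
Itgb1: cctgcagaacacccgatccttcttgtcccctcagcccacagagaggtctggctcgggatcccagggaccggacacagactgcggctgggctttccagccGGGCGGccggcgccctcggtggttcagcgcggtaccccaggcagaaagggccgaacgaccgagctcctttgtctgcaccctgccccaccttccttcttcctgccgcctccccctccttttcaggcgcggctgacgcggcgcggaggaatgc
Lama5: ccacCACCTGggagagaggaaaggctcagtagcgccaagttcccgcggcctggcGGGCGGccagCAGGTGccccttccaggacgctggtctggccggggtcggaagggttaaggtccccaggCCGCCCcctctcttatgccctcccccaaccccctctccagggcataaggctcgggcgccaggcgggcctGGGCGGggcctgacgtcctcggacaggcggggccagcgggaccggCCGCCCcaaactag
Lama5 held 4 GC boxes and 2 E-boxes, Itga5 held 2 GC boxes, Itgb1 held 1 and Itgav held neither motif. The GC content was 72.4% for Lama5, 68% for Itgb1, 64.4% for Itgav and 55.6% for Itga5, beside a median of 52.4% over all 32851 promoters in the table. RefSeq promoters were matched for 23 of the 37 members, 3 of them with several start sites, which gave 26 member promoters. A GC box was found in 9 of these (34.6%) and in 32.7% of all promoters. An E-box was found in 8 (30.8%) and in 17.2% of all promoters. The sequence CCAAT on either strand was found in 4 (15.4%) and in 33.8% of all, TATAAA in 0 and 12.4%, and the AP-1 sequence TGANTCA in 1 (Itgax, 3.85%) and 6.75%. These are matches of letters in a window and were not tested as sites. No match overlaps another in the 4 printed sequences.

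Values were read as RPKM, that is reads scaled to the length of the gene and to the depth of the library. No header names the unit, and comparisons of level between genes rest on this reading. Depth was estimated at 11680000 to 17840000 reads a library. All 8 pluripotency markers were at 1 RPKM or more in every ES and iPS library (summed level 4973 to 6110) and summed to 6.81 and 8.51 in MEF. The 10 fibroblast markers summed to 2697 to 2708 in MEF, 9.87 to 10.3 in ES cells, 178 and 272 in the 3F + IL6 clones and 142 to 168 in 4F clones. The part these cells or transcripts play in any result was not tested, and in bulk RNA fewer cells of a type and less RNA per cell cannot be told apart. The 2 libraries of a group were unequally close: the chi-square per gene between them, for which sampling noise alone gives about 1, was 4.07 for ES, 2.16 for MEF, 4.55 for 4F and 18.5 for 3F + IL6 over 1126 to 1282 genes with a single transcript. The median over genes, for which noise alone gives 0.455, was 0.578 for ES and 0.601 for MEF, 1.04 for 4F and 3.36 for 3F + IL6. A typical gene thus differed little more than sampling noise within the ES and MEF pairs, although these are called biological replicates, and each library was still counted. These close pairs enter the pooled error of every test, and the spread that p-values measure may be technical there.

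Of the 37 members, 26 reached 1 RPKM in at least 2 libraries and were tested with limma on log2(RPKM + 1) over 13200 genes. They were 12 of 18 integrin alpha genes, 5 of 8 integrin beta genes, 5 of 5 laminin alpha genes, 2 of 3 laminin beta genes and 2 of 3 laminin gamma genes. The 11 that did not pass stayed between 0 and 0.862 RPKM in every library. A member with a Benjamini-Hochberg adjusted p under 0.05 is called higher or lower. All fold values are ratios of mean RPKM, and log2 differences are on the log2(RPKM + 1) scale, on which genes of low level appear to change less than their ratio.

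Integrin and laminin genes differed widely between every pluripotent group and MEF, and so did most other genes. In 3F + IL6 clones against MEF, 24 of the 26 tested members were called, 8 higher and 16 lower in the clones, beside 82.1% of all genes tested (49.4% higher and 32.6% lower). In 4F clones against MEF 25 were called, 9 higher and 16 lower, beside 83.6% of all genes (49.2% and 34.4%). In ES cells against MEF 25 were called, 10 higher and 15 lower, beside 81.7% (49.7% and 32%). The median log2 difference of the members was -1.06, -1.10 and -1.27 in these comparisons, which share the MEF libraries. The median of all genes was 0.26, 0.25 and 0.27. The median member was thus higher in MEF and the median gene lower. Part of this follows from the filter. Itga1, Itga2, Itga4, Itga8, Itga11 and Lama2 passed it through the MEF libraries alone and could only be higher there. In the other direction, Itgal, Itgb4, Itgb7, Lama1 and Lama3 were under 1 RPKM in both MEF libraries. They passed through ES or clone libraries and could only be lower in MEF than in those libraries. With a MEF library left out, 20 members are tested. The 2 groups compared did not overlap in 25, 26 and 26 members, beside 90.4%, 93.7% and 94.4% of all genes tested.

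Between the iPS clones and ES cells the members were called about as often as other genes and split evenly. In 3F + IL6 clones against ES cells 18 members were called, 9 higher and 9 lower in the clones, beside 63.4% of all genes (33.1% higher and 30.3% lower). In 4F clones against ES cells 16 were called, 8 in each direction, beside 67.2% (33.7% and 33.5%). The median log2 difference was 0.14 (3F + IL6) and 0.13 (4F) for the members and 0.01 and 0.00 for all genes. These comparisons share the ES libraries. Between 3F + IL6 and 4F clones 1 member was called, Lama3, which was higher in 3F + IL6 clones, beside 1.34% of all genes (0.773% higher and 0.568% lower). At an unadjusted p under 0.05 there were 4 of the 26 members (Lama3, Lama1, Itgb1 and Itgb5), beside 24.2% of all genes. The groups did not overlap in 23 members for 3F + IL6 against ES (81.8% of all genes), 26 for 4F against ES (87.3%) and 5 between the kinds of clone (46.7%).

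**Figure D1:**
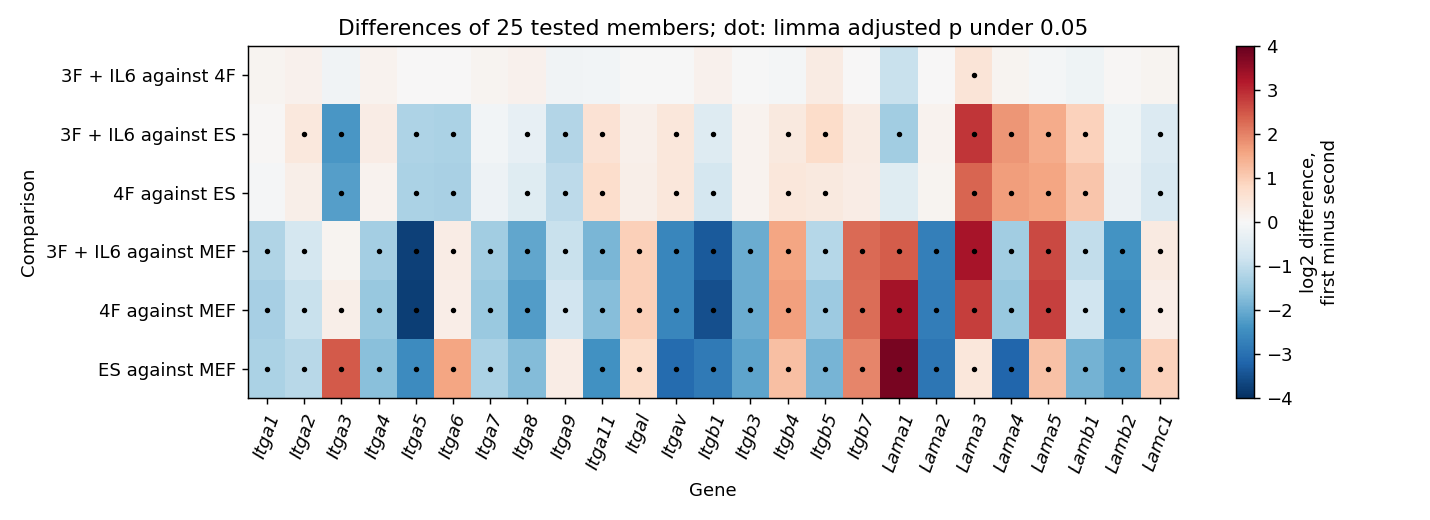
Log2 differences of 25 of the tested members in the 6 comparisons, one column per gene and one row per comparison; red is higher in the group named first, blue is lower, and a dot marks a limma adjusted p under 0.05. The row of 3F + IL6 against 4F holds a single dot, at Lama3, while the 3 rows against MEF hold 24, 25 and 24.

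Laminin alpha chains set the receptor binding of the trimer, and their make-up differed between ES cells, the iPS clones and MEF. ES cells were dominated by Lama1 and Lama5, the iPS clones by Lama5 with Lama3 beside Lama1, and MEF by Lama4 and Lama2. The alpha genes together summed to 23.3 and 23.8 RPKM in ES cells, 42.9 to 49.6 in the 4 clones and 20.9 and 21.3 in MEF.

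Lama5 (chr2:180176373-180225859, minus strand, mm10) encodes the alpha 5 chain of epithelial basement membranes, the chain of the laminin used to culture pluripotent cells. In the 3F + IL6 clones it stood at 26.9 and 23.7 RPKM and in the 4F clones at 29.0 and 24.9, beside 8.54 and 8.29 in ES cells, with 3.23 and 3.14 in MEF. All 4 clones lay above both references, without overlap. The mean in 3F + IL6 clones was 3.00-fold that in ES cells (log2 1.48, SE 0.0976, limma adjusted p = 3.04e-05) and 7.93-fold that in MEF. In 4F clones it was 3.20-fold that in ES cells (log2 1.57, adjusted p = 2.55e-05) and 8.46-fold that in MEF. Its share of all laminin alpha RPKM was 51.9% to 62.6% in the clones, 35.6% and 35.9% in ES cells, with 15.1% and 15.2% in MEF.

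Lama1 (chr17:67697259-67822647, plus strand) encodes the alpha 1 chain, a main chain of the first embryonic basement membranes. It was at 14.4 and 14.2 RPKM in ES cells, 2.87 and 7.90 in 3F + IL6 clones 1 and 2, 10.2 and 9.46 in 4F clones, and 0.0749 and 0.107 in MEF. The 3F + IL6 clones stood far apart from each other, clone 1 lowest of all pluripotent libraries. Lama1 made up 60.4% and 60.8% of laminin alpha RPKM in ES cells, 6.69% and 17.3% in 3F + IL6 clones, and 20.6% and 21.6% in 4F clones. In 3F + IL6 clones against ES cells the log2 difference was -1.38 (SE 0.332, limma adjusted p = 0.00921). It was -0.78 without clone 1 and -1.98 without clone 2, and passed both times in fits with that single clone. In 4F clones against ES cells it was -0.49 (adjusted p = 0.225) and not called. That difference was called with either 3F + IL6 clone left out (adjusted p = 0.000592 and 0.000649) and in a fit of the 4 libraries compared (0.00108), where the spread of the 3F + IL6 clones enters the error less or not at all. Between the kinds of clone it was -0.88 (adjusted p = 0.171). It was -0.28 without clone 1 and -1.49 without clone 2. Both values pass the threshold (limma adjusted p = 0.0378 and 0.00171), but a fit with a single 3F + IL6 clone no longer holds the spread between the clones and takes its error from the other groups. Such fits called 4782 (without clone 1) and 831 (without clone 2) genes between the kinds of clone, against 177 with both. Against MEF Lama1 rose in every pluripotent group, by 2.43, 3.31 and 3.81 on the log2 scale in 3F + IL6, 4F and ES cells. It passed the filter through those groups alone, so the direction of this rise follows from the filter. The primitive and parietal endoderm markers, cells that secrete much laminin, summed to 14.3 and 26.2 RPKM in 3F + IL6 clones 1 and 2, 12.9 and 14.1 in 4F clones, 10.2 in both ES libraries, and 96.9 and 97.1 in MEF. In each group 4 of these 10 genes were at 1 RPKM or more in both libraries, and their part in the Lama1 and Lama5 levels was not tested. The list did not move as one. Thbd, also a gene of vessel lining, was at 0.202 and 0.142 in ES cells, 3.66 to 11.5 in the clones and 66.7 and 65.6 in MEF, and Pdgfra and Dab2 too were highest in MEF and higher in the clones than in ES cells. The endoderm regulators Gata6 (2.93 and 3.10 in ES cells, 0.853 to 1.26 in the clones) and Sox7 (1.60 and 1.92, 0.348 to 0.811) were lower in the clones. Other regulators on the list were not: Gata4 (1.88 and 1.96, 1.39 to 2.46) overlapped between clones and ES cells. Foxa2 was at 1.61 in 3F + IL6 clone 2 and 0.0792 to 0.297 in the other clones and ES cells.

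Lama3 (chr18:12333819-12583013, plus strand) encodes the alpha 3 chain, best known from the laminin that anchors the epidermis. It was at 9.76 and 9.87 RPKM in 3F + IL6 clones, 6.52 and 6.48 in 4F clones, 0.438 and 0.549 in ES cells, with 0.0795 and 0.109 in MEF. No group overlapped another, and the 2 clones of each kind were close. Lama3 passed the filter through the clones alone, so its higher level there than in ES cells and MEF follows from the filter. The ratio to ES cells was 19.9 in 3F + IL6 clones (log2 2.86, limma adjusted p = 2.19e-06) and 13.2 in 4F clones (log2 2.33, adjusted p = 3.88e-06). The ratio to MEF was 104 and 69.0. Lama3 was 1.51-fold higher in 3F + IL6 than in 4F clones (log2 0.53, SE 0.0848, adjusted p = 0.0457). That last call ended with a pseudocount of 0.1 (adjusted p = 0.122), without the filter (0.0677), with library weights (0.298), in a fit of the 4 clones alone (0.297), and with any single ES, 4F or MEF library left out (0.121 to 0.187). With the replicate number as a block the adjusted p was 0.0737.

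Lamb3, the beta 3 chain and a usual partner of the alpha 3 chain, stayed between 0.0810 and 0.409 RPKM in every library and did not pass the filter. The 5 markers of epidermal epithelium summed to 0.372 to 1.44 RPKM in ES cells and clones, and 0 of them reached 1 RPKM in both libraries of those groups.

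Lama4 and Lama2 encode the alpha 4 chain of vessels and connective tissue and the alpha 2 chain of muscle and nerve. Lama4 was at 11.6 and 11.01 RPKM in MEF, 3.30 and 4.04 in 3F + IL6 clones, 3.69 and 3.01 in 4F clones, and 0.443 and 0.292 in ES cells. The clones lay between the references. Lama4 was 9.98-fold (3F + IL6, limma adjusted p = 3.99e-05) and 9.11-fold (4F, 5.15e-05) higher than in ES cells, and against MEF the log2 differences were -1.40 and -1.504. Lama2 was at 6.30 and 6.48 in MEF and between 0.0720 and 0.1201 in the 4 clones. In ES cells it was at 0.00639 and listed at 0. All 4 clones lay above both ES libraries. On the log2(RPKM + 1) scale, which compresses such levels, the limma differences from ES cells were 0.15 (3F + IL6, adjusted p = 0.146) and 0.12 (4F, 0.23) and not called. With a pseudocount of 0.1 they were 1.02 and 0.85 and both passed (adjusted p = 0.00821 and 0.016). In MEF, Lama4 gave 54.4% and 52.8% of laminin alpha RPKM and Lama2 gave 29.6% and 31.1%.

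**Figure D2:**
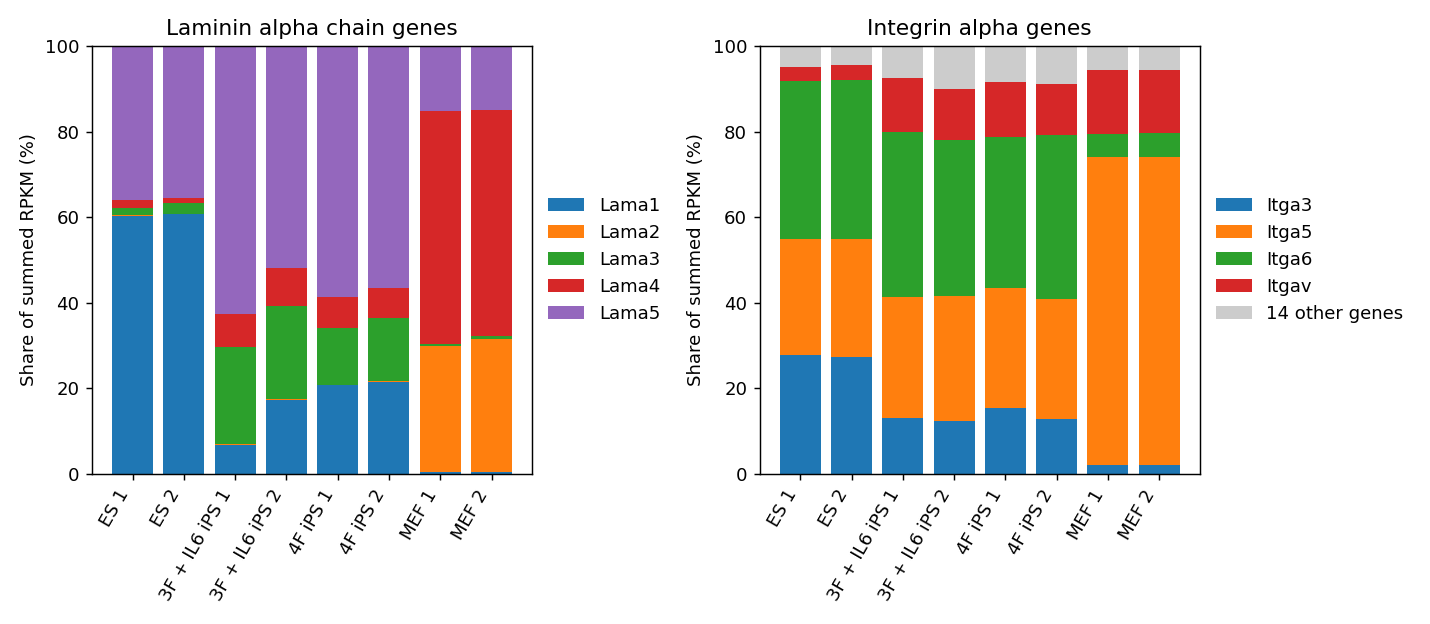
Share of the summed RPKM of the 5 laminin alpha genes (left) and of the 18 integrin alpha genes (right) in each of the 8 libraries, stacked to 100%. Lama1 takes 60.4% and 60.8% of the laminin bar in ES cells and Lama5 takes 51.9% to 62.6% in the clones; Itga5 takes 71.9% of the integrin bar in both MEF libraries and 27.2% to 29.3% in all other libraries.

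Of the beta and gamma chains, Lamb1 and Lamc1 complete most laminins of the embryo. Lamb1 (chr12:31265234-31329644, plus strand) was at 73.6 and 74.0 RPKM in MEF, 36.2 and 37.5 in 3F + IL6 clones, 47.4 and 37.4 in 4F clones, and 19.0 and 19.1 in ES cells. All 4 clones lay between the references. It rose against ES cells by 0.92 (3F + IL6, limma adjusted p = 0.00028) and 1.10 (4F, 0.000116) on the log2 scale, and against MEF the log2 differences were -0.98 and -0.79. Lamb2, the beta 2 chain of the kidney filter and the nerve-muscle junction, was at 30.5 and 30.7 in MEF, 5.38 and 6.10 in ES cells, 4.68 and 5.33 in 3F + IL6 clones, and 5.196 and 4.37 in 4F clones. The difference of the clones from ES cells was not called, and against MEF Lamb2 fell, with log2 differences of -2.40 (3F + IL6) and -2.45 (4F). The ratio of Lamb1 to Lamb2 was 3.14 and 3.53 in ES cells, 7.04 to 9.12 in the clones and 2.41 in both MEF libraries.

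Lamc1 (chr1:153218922-153332786, minus strand), the gamma 1 chain found in most laminins, was highest in ES cells, at 69.7 in both libraries. It was at 42.3 and 53.1 in 3F + IL6 clones, 46.3 and 41.8 in 4F clones, and 36.4 and 36.6 in MEF. Against ES cells it fell, with log2 differences of -0.55 in 3F + IL6 clones (limma adjusted p = 0.00338) and -0.65 in 4F clones (0.00138). The small rise over MEF, 0.37 (adjusted p = 0.0134) and 0.26 (0.0493), ended under quantile normalization (0.0961 and 0.367). The 3F + IL6 rise was 0.21 without clone 2 (adjusted p = 0.0218), and it also missed the threshold without either MEF library (0.0571 and 0.0517). The 4F rise missed it when a library of ES, 4F or MEF was left out (0.0573 to 0.224). Lamc3 did not pass 0.0908 RPKM in any library.

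**Figure D3:**
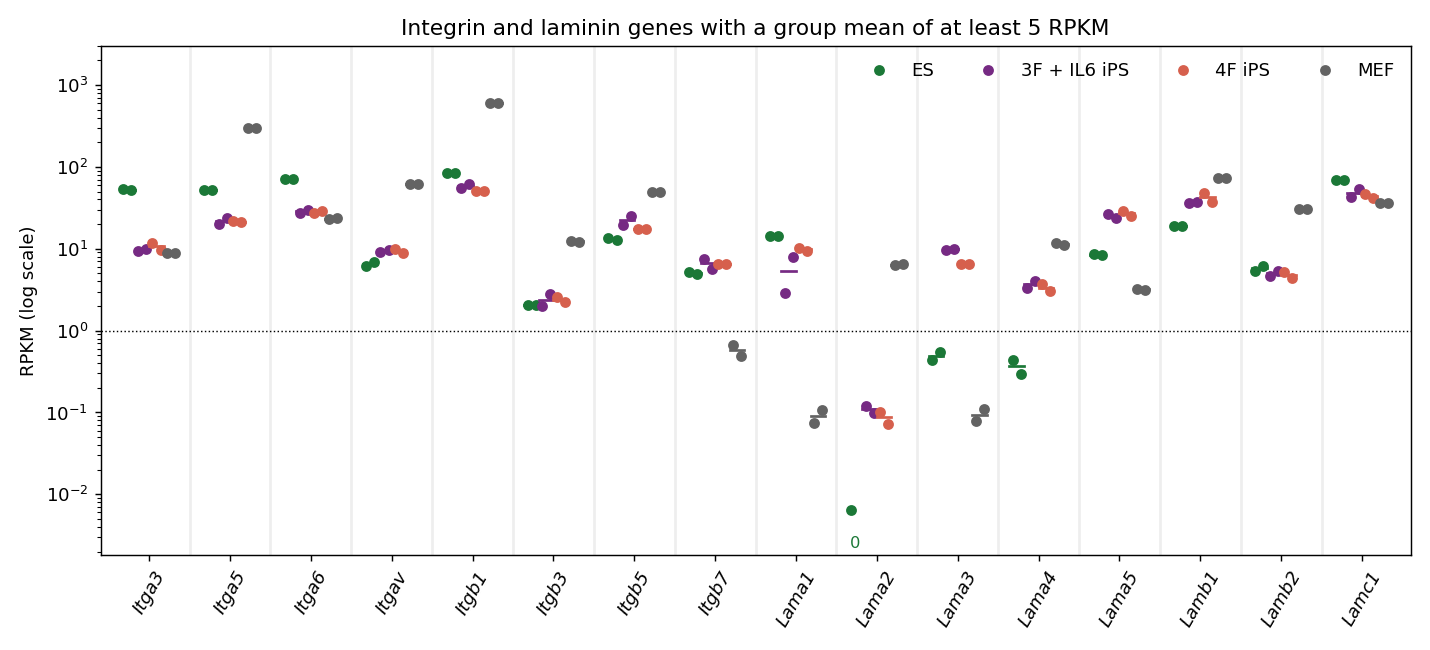
RPKM of 16 members with a mean of at least 5 RPKM in a group, on a log scale; each point is a library and each bar the mean of the 2 libraries of a group (no bar for Lama2 in ES cells, where a library is at 0, drawn as the digit). The dotted line is 1 RPKM. Itga5 and Itgb1 reach 302 and 605 RPKM in MEF, and the 3F + IL6 clones spread from 2.87 to 7.90 at Lama1.

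The laminin receptors Itga3 and Itga6 were ES-high and fell in the iPS clones to near the MEF level. Itga3 (chr11:95044474-95076801, minus strand), the alpha 3 receptor for laminins with the alpha 3 or alpha 5 chain, was at 53.2 and 52.3 RPKM in ES cells, 9.27 and 10.0 in 3F + IL6 clones, 11.7 and 9.73 in 4F clones, and 8.77 and 8.99 in MEF. It was 5.47-fold lower in 3F + IL6 clones than in ES cells (log2 -2.34, SE 0.0926, limma adjusted p = 4.88e-06) and 4.92-fold lower in 4F clones (log2 -2.20, adjusted p = 6.12e-06). Against MEF the 3F + IL6 clones differed by 0.11 (adjusted p = 0.316). The 4F clones differed by 0.24 (adjusted p = 0.0427), a call that ended without 4F clone 1 (0.12, adjusted p = 0.221), without either ES library (0.077 and 0.0767), without either MEF library (0.151 and 0.109) and with the replicate block (0.0569). Without 4F clone 2 the difference was 0.36 (adjusted p = 0.00738).

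Itga6 (chr2:71745616-71858416, plus strand), the alpha 6 receptor used as a surface marker of many stem cells, was at 70.6 and 70.7 in ES cells, 27.3 and 29.9 in 3F + IL6 clones, 27.1 and 29.1 in 4F clones, and 23.0 and 23.5 in MEF. It fell against ES cells, with log2 differences of -1.28 (3F + IL6, limma adjusted p = 1.17e-05) and -1.30 (4F, 1.11e-05). Its rise over MEF was 0.29 and 0.26, and adjusted p was 0.0567 and 0.0573 under quantile normalization. Itga7, the muscle laminin receptor, was at 4.77 and 4.53 in MEF and between 0.916 and 1.42 in all other libraries. The 5 skeletal muscle markers summed to 38.5 and 38.9 in MEF, 25.7 and 26.03 in ES cells and 9.25 to 14.7 in the clones, and their part in this was not tested. The sum was mostly Acta1 and Des. Myod1 and Myog were at most 0.257 and 0.238 in every library, and Myh3 was at 0.119 and 0.0809 in MEF and 0.434 to 0.792 elsewhere. Although Itga6 fell in the clones, its share of integrin alpha RPKM was 35.3% to 38.5% there and 36.8% and 37.1% in ES cells, against 5.50% and 5.58% in MEF.

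Receptors of the RGD tripeptide in fibronectin and vitronectin were the main integrins of MEF. Itga5 (chr15:103344286-103366763, minus strand), the alpha 5 chain of the fibronectin receptor, was at 301 and 302 RPKM in MEF, 52.2 and 52.4 in ES cells, 20.02 and 23.9 in 3F + IL6 clones, and 21.7 and 21.2 in 4F clones. All 4 clones lay below both references. The MEF mean was 13.7-fold that in 3F + IL6 clones (log2 -3.72 for clones minus MEF, SE 0.0802, limma adjusted p = 5.06e-08), 14.1-fold that in 4F clones (log2 -3.75, 4.81e-08) and 5.76-fold that in ES cells. Against ES cells Itga5 fell, with log2 differences of -1.22 (adjusted p = 3e-05) and -1.25 (2.85e-05) in 3F + IL6 and 4F clones. Itga5 and Itga6 fell to a like degree there, so the ratio of Itga5 to Itga6 was 0.727 to 0.802 in all 6 pluripotent libraries and 13.1 and 12.9 in MEF.

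Itgav (chr2:83724397-83806916, plus strand), the alpha v chain, was at 62.3 and 62.4 in MEF, 6.23 and 6.82 in ES cells, 9.03 and 9.65 in 3F + IL6 clones, and 9.84 and 8.97 in 4F clones. Unlike Itga5, it was higher in clones than in ES cells, by 0.46 (3F + IL6, limma adjusted p = 0.00192) and 0.47 (4F, 0.00158) on the log2 scale. Itga8, a nephronectin receptor, was at 4.44 and 4.56 in MEF, 0.646 and 0.634 in ES cells and 0.144 to 0.440 in the clones. It was called lower than ES cells in both kinds of clone, a call that for 3F + IL6 ended without clone 1 (-0.19, adjusted p = 0.0918). It also ended there without either ES library (0.126 and 0.119), without either 4F clone (0.0531 and 0.0527) and with library weights (0.0785). Itga2b, the platelet chain, did not pass 0.862 RPKM.

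The 3 collagen receptors that passed the filter did so through the MEF libraries alone. That they were higher in MEF than in every other library follows from the filter. Itga11, the receptor of fibrillar collagen on fibroblasts, was at 4.40 in both MEF libraries, 0.417 and 0.617 in 3F + IL6 clones, 0.676 and 0.605 in 4F clones, and 0.0127 and 0.0165 in ES cells. It was called higher in both kinds of clone than in ES cells (limma log2 0.58 and 0.69, adjusted p = 0.00166 and 0.000648), and with a pseudocount of 0.1 these differences were 2.41 and 2.69. Itga1 was at 1.78 in both MEF libraries and at most 0.310 elsewhere. Itga2 was at 1.05 and 1.31 in MEF, 0.209 and 0.458 in 3F + IL6 clones, 0.178 and 0.186 in 4F clones, and listed at 0 in both ES libraries. Its rise over ES cells was called in 3F + IL6 clones (0.41, adjusted p = 0.0173) and not without either ES library (0.0763 and 0.0777). That Itga2 call also ended under quantile normalization (0.19, limma adjusted p = 0.0873) and with library weights (0.0834). All 3 of these collagen receptors were lower than MEF in each pluripotent group. Itga10, the remaining collagen receptor, was not tested, and its 0.426 and 0.502 RPKM in MEF lay within the range of 0.247 to 0.560 in the other libraries. Of the alpha 4 and alpha 9 pair, Itga4, a receptor for VCAM1, was at 2.94 and 2.91 in MEF and at most 0.702 elsewhere. Itga9 was at 3.83 and 3.14 in ES cells, 2.61 and 2.71 in MEF and 0.647 to 1.36 in the clones, below both references. It fell against ES cells, with log2 differences of -1.18 (adjusted p = 0.00112) and -1.05 (0.00169).

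Among integrin beta chains Itgb1 (chr8:128685654-128733200, plus strand), the partner of most alpha chains named above, was the most abundant member in every library. It was at 605 and 602 RPKM in MEF, 83.01 and 83.7 in ES cells, 54.9 and 60.9 in 3F + IL6 clones, and 51.3 in both 4F clones. The clones lay below both references. The MEF mean was 10.4-fold that in 3F + IL6 clones (log2 -3.36 for clones minus MEF, SE 0.0561, limma adjusted p = 2.11e-08) and 11.8-fold that in 4F clones (log2 -3.53, 1.87e-08). Against ES cells Itgb1 fell, with log2 differences of -0.52 (3F + IL6, adjusted p = 0.000248) and -0.69 (4F, 7.14e-05). It made up 90.5% of beta chain RPKM in MEF, 78.2% and 79.6% in ES cells and 62.2% to 63.5% in the clones.

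Itgb5, a partner of alpha v, held a larger share in the clones than in either reference. Its level was 49.7 and 50.0 RPKM in MEF, 13.6 and 12.6 in ES cells, 19.7 and 25.0 in 3F + IL6 clones, and 17.6 in both 4F clones. It rose against ES cells by 0.72 in 3F + IL6 clones (limma adjusted p = 0.00108) and 0.40 in 4F clones (0.0137). The 4F call ended without ES library 2 (0.0818) and without either 4F clone (0.0595 and 0.056). Its share of beta chain RPKM was 21.5% to 25.6% in the clones, 11.99% and 12.8% in ES cells, with 7.44% and 7.51% in MEF. Itgb3, the other main partner of alpha v, was at 12.3 and 12.2 in MEF and 2.00 to 2.79 in the 6 pluripotent libraries, with no call between clones and ES cells. Between the kinds of clone Itgb1 (log2 0.17, adjusted p = 0.14) and Itgb5 (0.32, 0.143) were not called. Without 3F + IL6 clone 1, in a fit with a single clone of that kind, both passed (adjusted p = 0.00465 and 0.00268).

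Itgb7, Itgb4 and Itgal were higher in the clones and ES cells than in MEF. None of them reached 1 RPKM in MEF, so this direction follows in part from the filter. Itgb7, a beta chain of lymphocytes, was at 5.22 and 4.90 RPKM in ES cells, 7.52 and 5.69 in 3F + IL6 clones, 6.43 and 6.45 in 4F clones, and 0.665 and 0.488 in MEF. The clones did not overlap ES cells, but the differences were not called (limma log2 0.32 and 0.30, adjusted p = 0.0686 and 0.0802). The partners of the beta 7 chain were low in the same libraries: Itga4 was at most 0.702 and Itgae, the alpha E chain, at most 0.674. Itgb4, the beta 4 chain of hemidesmosomes, was at 2.16 and 1.81 in ES cells, 3.04 and 2.71 in 3F + IL6 clones, 3.42 and 2.76 in 4F clones, and 0.286 and 0.306 in MEF. Its rise over ES cells, 0.38 and 0.45, missed the threshold under quantile normalization (adjusted p = 0.405 and 0.109) and without ES library 2 (0.152 and 0.0803). It also missed without 3F + IL6 clone 1 (0.0687) or either MEF library (0.054 and 0.0539) for 3F + IL6, and without 4F clone 1 (0.0651) for 4F. For 3F + IL6 the Itgb4 call also ended with library weights (limma adjusted p = 0.117) and in a fit of the 4 libraries compared (0.0598). Itgal, the alpha L chain of LFA-1 on leukocytes, was at 0.702 to 1.15 in ES cells and clones and 0.0211 and 0.0310 in MEF. Its usual partner Itgb2 did not pass 0.497. Blood markers (6 of 7 symbols found) summed to 85.4 to 109.8 in ES cells and clones and 4.40 and 4.91 in MEF, mostly Laptm5 and Cd68, while the defining marker Ptprc was at most 0.0561 in every library and listed at 0 in both ES libraries.

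Placed against both references, 12 of the 26 tested members had all 4 clones between ES cells and MEF, beside 26.7% of all genes tested. Among these, Itga2, Itga4, Itga11 and Lama2 passed the filter through MEF alone, so their MEF end was fixed by it. Their clone and ES values all lay under 1 RPKM. In 5 members all clones lay above both references (Itgal, Itgb4, Itgb7, Lama3 and Lama5), beside 23.5% of all genes. In 5 others they lay below both (Itga5, Itga8, Itga9, Itgb1 and Lamb2), beside 14.9%. Lama3 and Itgal passed the filter through clone libraries alone, 4 for Lama3 and 3 for Itgal. Those clones thus had to lie above both references. Such a position is not a call. Itgal, Itgb7 and Lamb2 were not called against ES cells in either kind of clone (limma adjusted p = 0.0686 to 0.204). The remaining 4, Itga1, Itga7 and Itgb3 among them, had clones that overlapped a reference group. Of the 12 in between, Itga3, Itga6, Lama1 and Lamc1 were higher in ES cells, and the other 8 were higher in MEF.

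The members highest in MEF were set beside the fibroblast markers, whose sum was low in the clones although 2 of the markers were not. In 3F + IL6 clones 1 and 2 the sum of the 10 markers was 6.60% and 10.1% of the MEF mean, and in the 4F clones 6.21% and 5.24%. Single markers ranged from 2.14% to 268% of MEF. The highest were Dcn, at 71.7% to 195%, and Lum, at 78.5% to 268%. Of the 15 members that were higher in MEF than in every other library, 11 stood above the marker sum of the same library in all 4 clones. That share was not taken over all genes, so whether it is unusual is not known. The sum is weighted to abundant markers such as Col1a1 and Col1a2 (MEF means of 1237 and 520 RPKM). Among the 11, Itga2, Itga4 and Itga11 lay under 1 RPKM in every clone. Lamb1 stood at 49.1% to 64.2% of MEF, Itgb5 at 35.2% to 50.2%, Lama4 at 26.6% to 35.7% and Itgav at 14.4% to 15.8%. Itga8 and Lama2 stood below the marker sum in all 4, Lama2 at 1.13% to 1.88%. In ES cells, where the marker sum was 0.365% and 0.380% of MEF, Itga5 was at 17.3% and 17.4%, Itgb1 at 13.8% and 13.9% and Lama4 at 3.92% and 2.59%. The part of fibroblast RNA in the clone values was not tested.

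**Figure D4:**
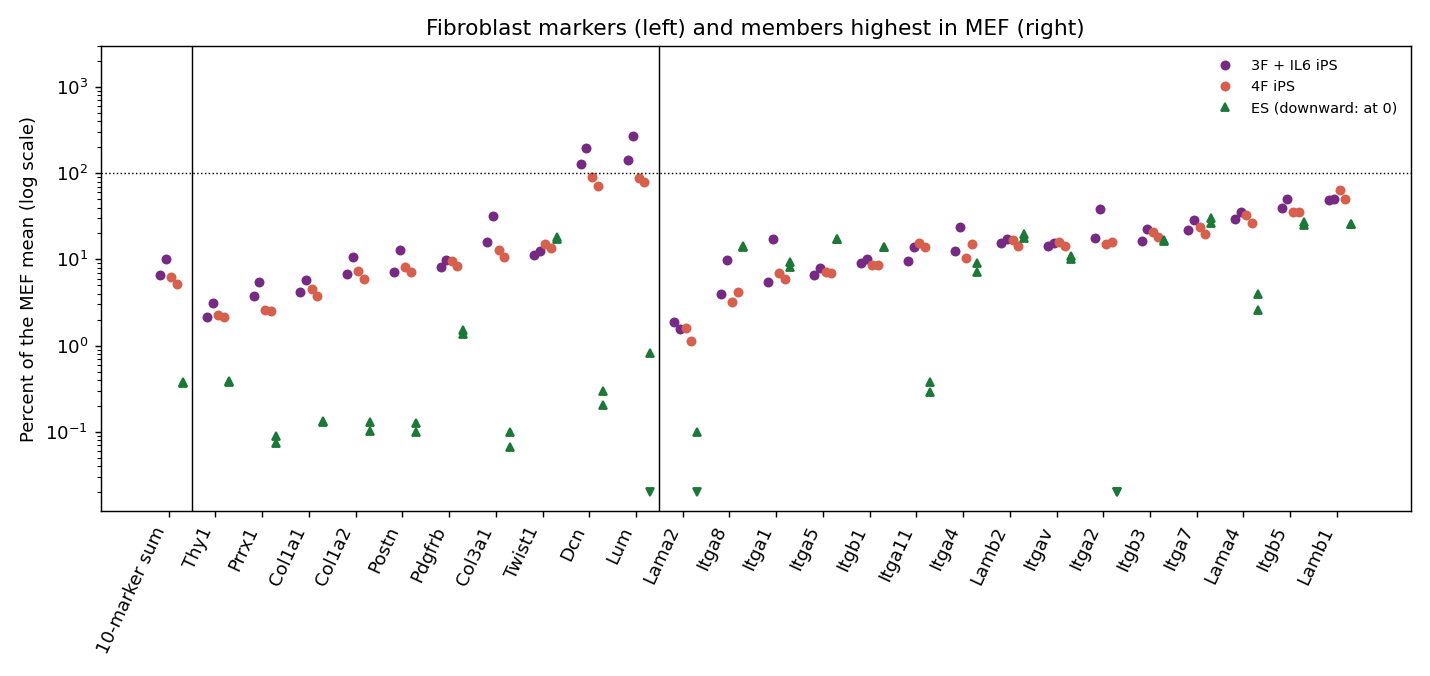
Level in each iPS clone (circles) and ES library (triangles) as a percentage of the MEF mean, on a log scale, for the sum of the 10 fibroblast markers, each marker, and the 15 members highest in MEF. The marker sum lies at 5.24% to 10.1% in the clones, Lama2 lies below it at 1.13% to 1.88% and Lamb1 above it at 49.1% to 64.2%.

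Adaptors that link integrins to actin were mostly lower in the clones than in ES cells, and lower in ES cells than in MEF. Of 26 listed adaptor and focal adhesion genes 24 were tested. In 3F + IL6 clones against ES cells limma called 3 higher and 18 lower (median log2 difference -0.66), and in 4F clones 3 higher and 19 lower (-0.81), beside the medians of 0.01 and 0.00 over all genes. Of all genes tested, 33.1% were called higher and 30.3% lower in the first comparison, and 33.7% and 33.5% in the second. Vcl, encoding vinculin, was at 67.2 and 67.6 RPKM in ES cells, 17.3 and 19.5 in 3F + IL6 clones, 16.4 and 17.0 in 4F clones, and 231 and 229 in MEF. It fell against ES cells, with log2 differences of -1.82 and -1.95, the smallest p of the list in both comparisons. Lims1, encoding the adaptor PINCH1, went the other way, at 6.45 and 6.93 in ES cells and 21.4 to 24.2 in the clones (log2 1.62 and 1.66). Ptk2b, a kinase related to focal adhesion kinase, was at 1.49 and 1.55 in ES cells and 8.03 to 10.4 in the clones (1.92 and 2.09). Against MEF, 19 adaptors were lower in each kind of clone, with 2 (3F + IL6) and 3 (4F) higher, and 20 were lower and 3 higher in ES cells, beside 32.6%, 34.4% and 32% of all genes lower in the 3 comparisons. Ilk, integrin-linked kinase, was 254 and 253 in MEF and 18.2 to 23.9 in the clones.

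Other basement membrane and laminin-receptor genes, 18 in all and all tested, moved both ways. Against ES cells limma called 8 higher and 6 lower in 3F + IL6 clones (median 0.24) and 9 higher and 5 lower in 4F clones (0.17), beside 63.4% and 67.2% of all genes called in either direction. Bcam, a cell surface receptor for the laminin alpha 5 chain, was at 100.5 and 99.8 RPKM in ES cells, 30.6 and 31.1 in 3F + IL6 clones, 31.5 and 29.6 in 4F clones, and 1.85 and 1.65 in MEF. Its log2 differences from ES cells were -1.67 and -1.68, while Lama5 rose. Dag1, dystroglycan, another laminin receptor, fell too (log2 -1.11 and -1.21). Sdc1, syndecan 1, was at 7.54 and 6.97 in ES cells and 30.0 to 39.0 in the clones (log2 2.05 and 2.15). Nid1, which links laminin to collagen IV, rose by 0.80 and 1.08. Against MEF the list gave 9 higher and 9 lower in 3F + IL6 clones, 8 and 8 in 4F clones, and 7 and 10 in ES cells, beside 82.1%, 83.6% and 81.7% of all genes called.

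Other integrin ligands, of which 14 of 15 were tested, were mostly higher in the clones than in ES cells and lower than in MEF. Against ES cells limma called 10 higher and 0 lower in 3F + IL6 clones (11 had an unadjusted p under 0.05, median log2 difference 0.97) and 9 higher and 1 lower in 4F clones (1.24). Of all genes, 63.4% were called in the first comparison (33.1% higher) and 67.2% in the second (33.7% higher), and 67.1% had an unadjusted p under 0.05 in the first. Thbs1, thrombospondin 1, was at 2.08 and 2.25 RPKM in ES cells, 34.1 and 40.8 in 3F + IL6 clones, 31.3 and 30.4 in 4F clones, and 2023 and 2013 in MEF. Vcam1, a ligand of the alpha 4 and alpha 9 receptors, was at 4.74 to 5.66 in the clones, at most 0.0369 in ES cells, with 17.3 and 17.1 in MEF. Col1a1, Col1a2 and Postn belong to the fibroblast marker list too, so their rise over ES cells is the same measurement as the marker sum given above. Against MEF 3 were higher and 11 lower in 3F + IL6 clones, 2 and 10 in 4F clones, and 2 and 11 in ES cells, where 82.1%, 83.6% and 81.7% of all genes were called. Cdh1, E-cadherin, the ligand of the alpha E beta 7 receptor, led the rise, at 115 to 131 in the clones and at most 0.288 in MEF.

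Between 3F + IL6 and 4F clones limma called 0 genes in each of these 3 lists, beside 1.34% of all genes. At an unadjusted p under 0.05 there were 9 of 24 adaptor genes, 3 of 18 basement membrane genes and 5 of 14 ligand genes, beside 24.2% of all genes. The smallest limma adjusted p among the adaptors belonged to Parvb (log2 -0.50, 0.0594) and Bcar1 (0.35, 0.0601), among the basement membrane genes to Nid1 (-0.29, 0.108) and among the ligands to Spp1 (0.54, 0.102). With 2 clones of each kind, a p over the threshold does not show that the kinds of clone are alike.

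Reads at several members may include those of a neighbouring gene. In GENCODE M21, 12 of the 37 members share exon bases with another gene. Of those that were tested, Itga4 shared 8.04% of its exon bases with Cerkl, Itgb4 7.66% with B230344G16Rik, Itgav 5.90% with Gm13684 and Itga8 5.05% with E030013I19Rik. Lama2 shared 3.86% with Gm48084, Lama3 1.83% with Gm29200 and Itga7 0.111% with Mettl7b, and all of these lie on the opposite strand. Itga1 shared 3.68% with Gm49395 on the same strand. Whether the counting used strand is not stated, so reads of such pairs cannot be told apart. The largest overlaps were at members that did not pass the filter, Itgam (68.7% with Gm49368) and Itga10 (33.5% with Gm42957), on the same strand.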

How the data were processed

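Each library's deposited table gave a single value per gene symbol. No header names the unit. The authors' deposited values were read as RPKM because low values, multiplied by transcript length, clustered at multiples of a constant step; only 56.3% to 60.8% fell within 0.1 of a whole read, too few to recover read counts. Reads were 50 bp long and the build was mm10, per the labels. Which aligner, counter and gene models were used is not given in the sources used here.

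Values were transformed to log2(RPKM + 1), keeping genes that reached 1 RPKM in at least 2 libraries. limma 3.58.1 (R 4.3.3) fitted all 8 libraries without a replicate block, with trended empirical Bayes moderation, two-sided, adjusted over 13200 genes, threshold 0.05. Log2 differences had a median SE of 0.102. The fit was tested on simulated data. Coordinates are from GENCODE M21 (mm10). Any member could be named; other lists name up to 6 genes with the smallest p. The result of 1 member is not reported here. Members and lists were chosen with earlier results of these data known. Alternatives were another pseudocount, filters, scalings, error models, and each library left out.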

Additional observations from a re-analysis of the deposited data

How the results depend on the processing

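Over the 6 comparisons 109 member calls were made. Under 17 settings (9 besides leaving a library out), 98 stayed past the threshold wherever tested, 11 were lost at least once and 0 changed direction. The count for 3F + IL6 against 4F, 1, became 0 with a pseudocount of 0.1, no filter, a mean of at least 5 RPKM (which leaves 14 members untested, Lama3 among them), library weights, only the 4 clones, or the replicate block; 3 to 6 members had an unadjusted p under 0.05 in these, except 1 with only the 4 clones. Leaving out a library gave 0 to 8, with 8 without 3F + IL6 clone 1 and 2 without clone 2. Over all genes the 177 calls of that comparison became 56 with the pseudocount, 315 under quantile normalization, 36 with the block, 5 with weights and 17 with the 4 clones. They were 1 to 4782 with a library left out. The filter at a mean of 5 RPKM tests 12 members and gave 11, 10, 10, 11 and 12 calls in 3F + IL6 against ES, 4F against ES, 3F + IL6 against MEF, 4F against MEF and ES against MEF. Leaving out a library gave 14 to 19, 14 to 20, 17 to 24, 17 to 25 and 19 to 26 in the same order. The low ends against MEF come without a MEF library, when 20 members are tested.

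The replicate numbers are shared across groups. The deviations of same-numbered libraries correlated at -0.055 to 0.21, the highest for ES and MEF. With 2 libraries a group these values cannot decide whether the numbers pair the libraries. With the replicate block the member counts were 0, 19, 16, 24, 23 and 25, against 1, 18, 16, 24, 25 and 25. The block ended the calls of Lama3 between the kinds of clone, and of Itga3 and Lamc1 in 4F against MEF, and added 1 call in 3F + IL6 against ES. It changed no other member call.

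Median centring moved the log2 difference of the median gene against MEF by 0.11 in 3F + IL6 clones, and quantile normalization by 0.15, 0.13 and 0.12 in 3F + IL6, 4F and ES. Quantile normalization ended the calls over MEF of Itga6 and Lamc1 in both kinds of clone and of Itga3 in 4F clones (0.16, adjusted p = 0.149). Median centring ended those of Itga3 (0.17, 0.127) and Lamc1 (0.19, 0.0879) in 4F clones. Library weights were 2.16 for ES, 2.67 for MEF, 0.224 for 3F + IL6 and 0.774 for 4F, so tests in the clones rest on a spread pooled with closer pairs. With 2 libraries a group and 11680000 to 17840000 reads, small differences and levels far below 1 RPKM could not be resolved.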
